A study of Mus musculus with 8 samples.

Results

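The 37 genes described here encode proteins of the nucleolus and of ribosome assembly, together with Myc, which encodes a transcription factor known to drive this program. They were chosen by name, and all 37 had a row among the 55414 gene rows of the deposited count table. All 37 also passed the filter on low counts that left 14004 genes for testing. The cells were red pulp macrophages, the splenic macrophages that clear aged red blood cells, sorted by flow cytometry. The mice were WT C57BL/6J. Spleens were taken 2 h after cecal ligation and puncture (CLP), a surgical model of sepsis in which gut bacteria leak into the abdomen, or 2 h after sham surgery, with 4 libraries in each group. Age and sex are not in the labels, nor is it stated whether 1 mouse or several gave a library, so the spread behind the p-values may be technical. CLP against sham is the 1 comparison of the design.

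Ribosomes are built in the nucleolus, where RNA polymerase I makes a long ribosomal RNA precursor. Small nucleolar ribonucleoproteins (snoRNPs), each a guide RNA with its protein partners, modify that precursor. The small subunit (SSU) processome and a separate set of factors then cut and fold it into the 40S and 60S subunits, which mature further on their way to the cytoplasm. MYC, as a dimer with MAX, binds the DNA motif CACGTG, called the E-box, and is known to raise RNA polymerase I activity and many assembly factors in growing and activated cells. In macrophages the pathway sets the supply of ribosomes for making cytokines and other proteins.

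E-boxes were looked up in the promoter windows of these genes because MYC itself is one of them. RefSeq windows on GRCm38.p6, from 250 bases before to 50 bases after the annotated start, were matched by symbol for 30 of the 37 genes. CACGTG reads the same on both strands, so 1 search covers both, and 8 of the 30 genes held it (26.7%), against 11.7% of the 9787 tested genes with a window and 8.09% of all 27025 genes with one. In 7 of the 8 genes the motif lay at or after the start (23.3% of the 30 genes), against 1.86% of tested genes. In the 250 bases before the start the order was the opposite, with 1 of the 30 genes (3.33%) against 9.85% of tested genes. The 8 genes are shown with 1 site each because they are the ones that hold the motif. Each line gives 30 bases, 5′ to 3′ on the strand of the gene, with the E-box in capitals.
Mybbp1a, chr11:72441347-72441376, plus strand: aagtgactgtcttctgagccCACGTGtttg
Wdr43, chr17:71616220-71616249, plus strand: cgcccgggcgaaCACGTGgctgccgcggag
Ltv1, chr10:13193092-13193121, minus strand: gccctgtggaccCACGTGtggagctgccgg
Tsr1, chr11:74898092-74898121, plus strand: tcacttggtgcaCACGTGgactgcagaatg
Utp20, chr10:88826765-88826794, minus strand: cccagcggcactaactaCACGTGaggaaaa
Pes1, chr11:3963965-3963994, plus strand: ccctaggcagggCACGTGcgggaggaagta
Grwd1, chr7:45830740-45830769, minus strand: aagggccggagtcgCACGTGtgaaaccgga
Nop2, chr6:125131811-125131840, plus strand: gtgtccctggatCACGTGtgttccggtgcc
Counted from the start as base 1, the motif began between base 3 (Pes1) and base 41 (Mybbp1a) in the 7 genes, and at base -60 in Nop2. Of these 8 genes Mybbp1a, Wdr43 and Ltv1 rose after CLP, and the other 5 did not pass the test. Among all 37 genes 12 rose (32.4%), and only 8 of these 12 had a window. The motif was in 3 of those 8 (37.5%), in 5 of 19 uncalled genes with a window (26.3%) and in 0 of 3 that fell. Nop58 and Gnl3, which more than doubled, had windows without it. A match is a sequence description and does not show binding.

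After CLP the 37 genes did not move as 1 block. Levels are given in CPM, the reads of a gene per 1e6 reads of the scaled library. With libraries scaled by TMM, which assumes that most genes do not differ, 12 rose, 3 fell and 22 did not pass edgeR's quasi-likelihood test at an adjusted p of 0.05, where 43.3% of all tested genes passed. The 12 that rose (32.4%) stand against 19.8% of all tested genes called higher, and the 3 that fell (8.11%) against 23.5% called lower. By at least 2-fold, 3 rose (Rrs1, Gnl3 and Nop58) and none fell, where 6.3% and 8.36% of all tested genes did so. Levels of 13 genes in all 4 CLP libraries lay above all 4 sham libraries and levels of 3 lay below, beside 18.7% and 22.8% of all tested genes. The median log2 fold change of the 37 genes was 0.15, and that of all tested genes was -0.05.

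**Figure D1:**
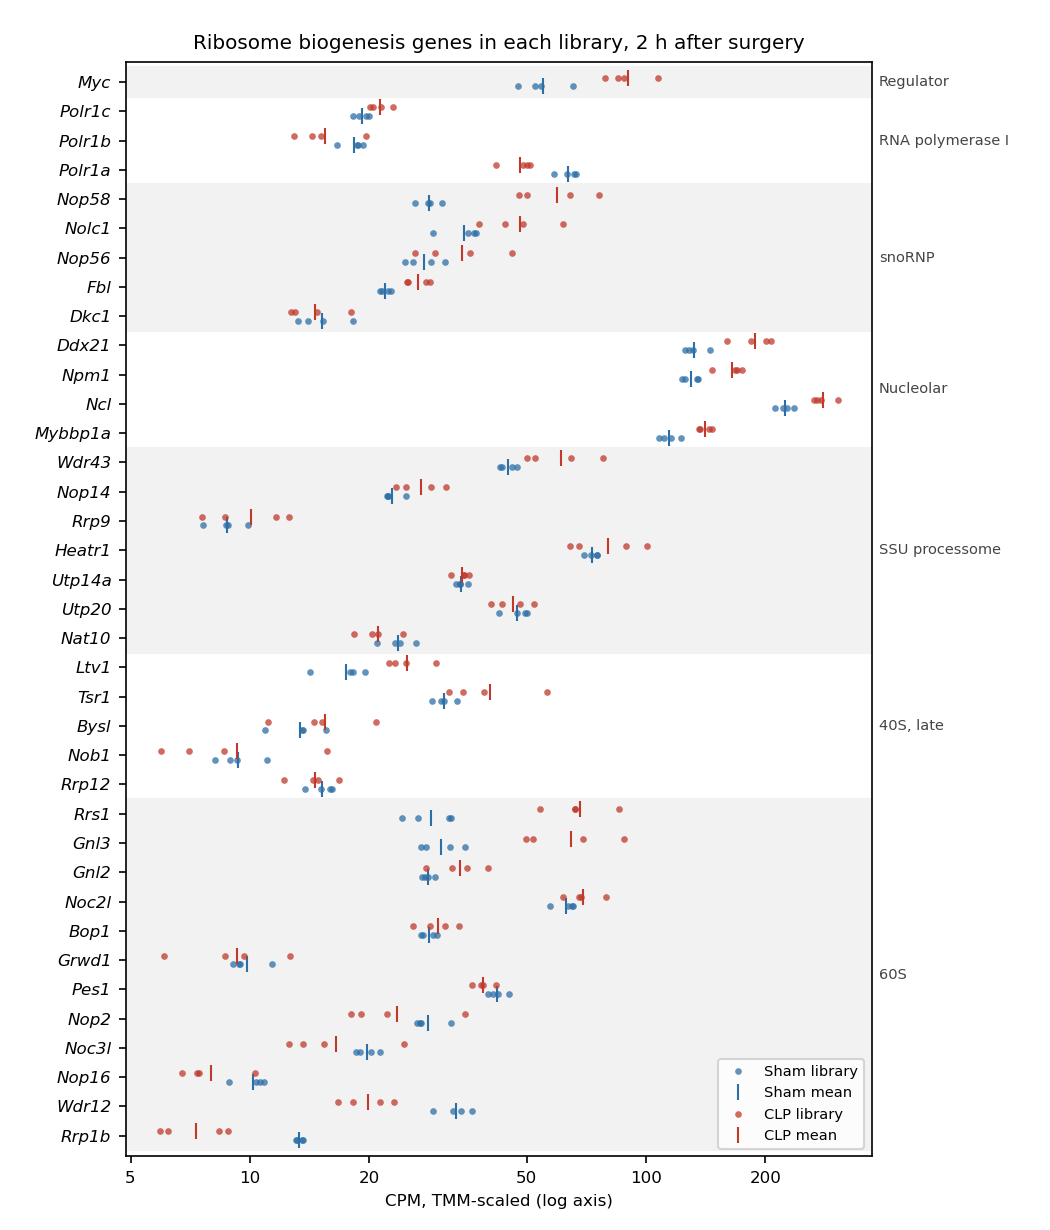
Level of each of the 37 genes in each library in CPM (TMM-scaled, log axis), ordered by role; points are libraries, blue for sham and red for CLP, and vertical ticks are the means of 4 libraries. Rrs1, Gnl3, Nop58 and Myc lie to the right of all sham points in every CLP library, Wdr12, Rrp1b and Polr1a lie to the left, and most other genes overlap.

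The size of these changes depends on the scaling more than on any other choice. When libraries were scaled by their totals alone, the median fold change of all tested genes moved by -0.32 on the log2 scale. Then 4 of the 37 genes were called higher (9.18% of all tested genes were) and 12 lower (46% of all tested genes were). The 4 were Myc, Nop58, Gnl3 and Rrs1, and the 3 genes lower with TMM, Polr1a, Wdr12 and Rrp1b, stayed lower. The median of the 37 genes was -0.17 and that of all tested genes -0.37, a distance of 0.20 with both scalings. Under each scaling 25 of the 37 genes lay above the median of all tested genes. The modest rises described below for Ncl, Npm1, Fbl, Ddx21, Mybbp1a, Nolc1, Wdr43 and Ltv1 were thus rises relative to TMM-scaled totals, and these 8 were not called with library totals.

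**Figure D2:**
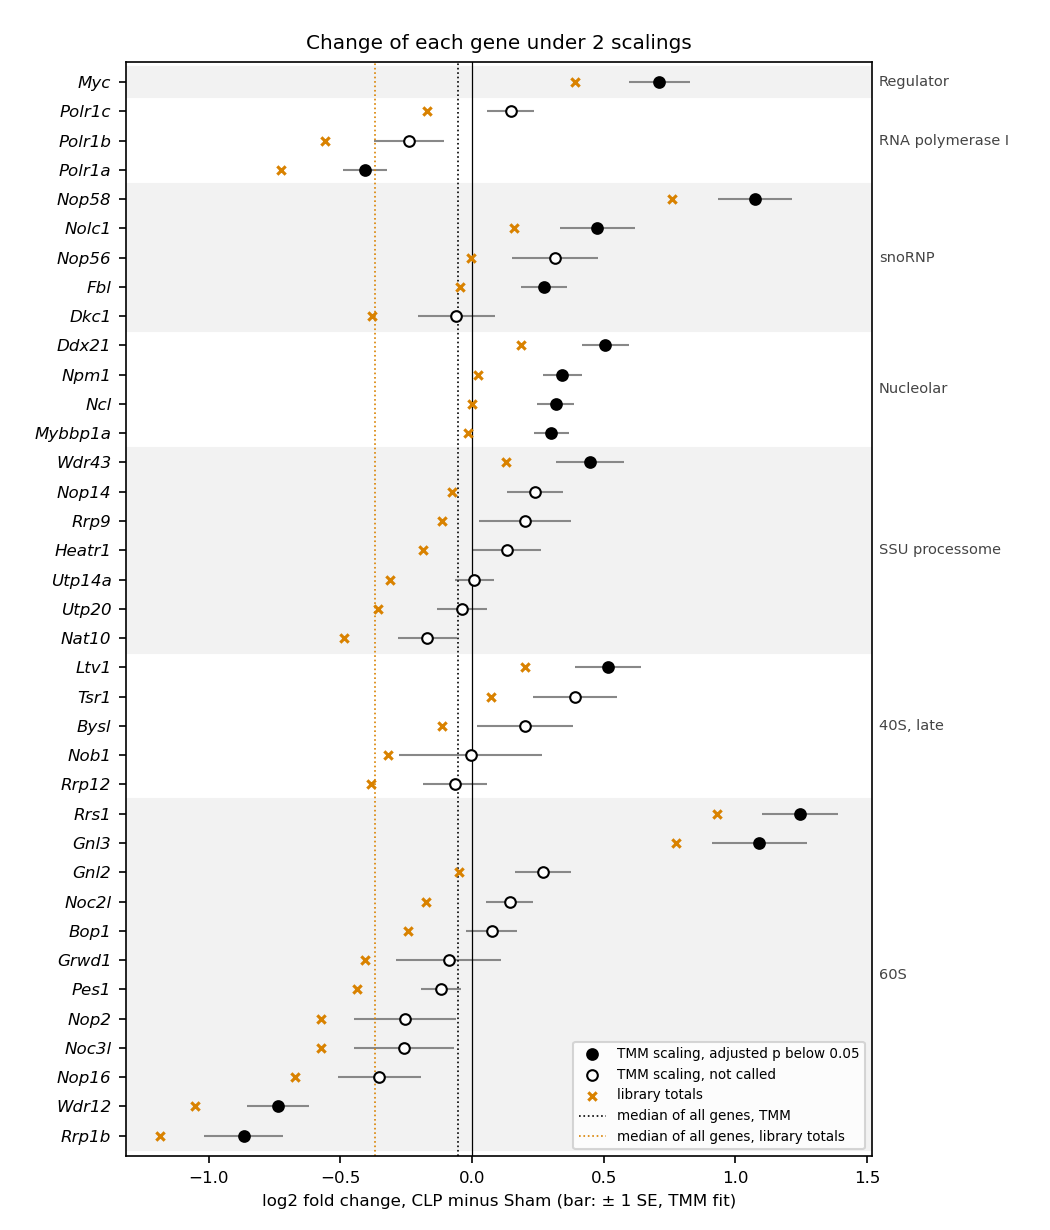
Log2 fold change of each of the 37 genes, CLP minus sham, with TMM scaling (circles, filled where called, bars ± 1 SE) and with library totals (orange crosses); dotted lines are the medians of all tested genes, -0.05 and -0.37. All crosses sit to the left of their circles, and Myc, Nop58, Gnl3 and Rrs1 stay right of 0 with both.

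CLP replicate 3 stood apart from the other CLP libraries. It was the highest of the 4 for 31 of the 37 genes, and its median deviation from the group mean was 0.25 on the log2 scale, against -0.05, -0.19 and 0.03 in replicates 1, 2 and 4. Nob1 deviated most, by 0.86. The 37 genes varied more among CLP libraries (median coefficient of variation 14.9%) than among sham libraries (6.38%), and did so for 35 of 37 genes, or for 25 of 37 without CLP replicate 3. For 8213 tested genes of at least the same abundance the medians were 10.7% and 8.01%. Without CLP replicate 3 the CLP median was 10.4% for the 37 genes and 8.26% for the others. Leaving it out kept all 12 higher and all 3 lower calls and added Polr1b, Nop2 and Noc3l as lower, for 12 higher and 6 lower. CLP replicate 3 also had the highest summed level of monocyte markers (57.7 CPM, against 24.5 to 31.9 in the other CLP libraries) and of marginal zone macrophage markers (958 CPM, against 569 to 711), and the lowest of red pulp macrophage markers (55403 CPM, against 61711 to 63912). The part of these cells in its higher values was not tested.

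**Figure D3:**
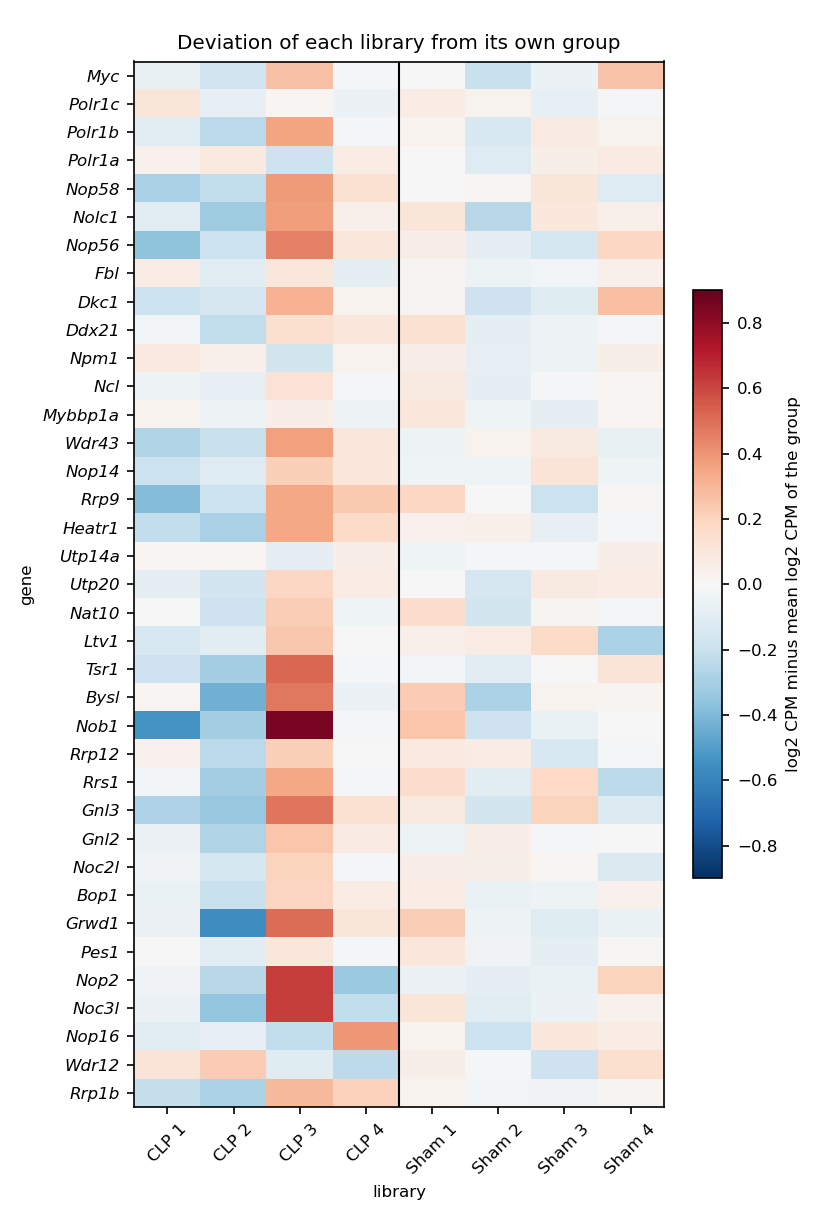
Deviation of each library from the mean of its own group, in log2 CPM, for the 37 genes (rows, ordered by role) and 8 libraries (columns); red is above and blue below the group mean. The column of CLP replicate 3 is red for most genes, up to 0.86 for Nob1, and the sham columns are paler.

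Other cell types and cell division were measured beside these genes. All 15 red pulp macrophage markers were expressed, and their summed level was 55403 to 63912 CPM in CLP and 47023 to 57702 CPM in sham. Of the 15, 9 rose and 1 fell (Slc40a1, the iron exporter ferroportin, by 0.40 on the log2 scale), and with library totals 1 was higher and 3 lower. Spic, which encodes a transcription factor of these cells, rose most (0.90). The other rises lay between 0.25 and 0.44 (Adgre1), and those of Ncl, Npm1, Fbl and Mybbp1a lay between 0.27 and 0.34. Vcam1, an adhesion receptor, was the most abundant marker. Neutrophil markers summed to 10.6 to 27.8 CPM in CLP and 3.9 to 15.8 CPM in sham, with 9 of 12 too low to test, and Ly6g at 1 read in all 8 libraries together. Of the 3 tested, 2 rose without overlap, and both were also called higher with library totals. S100a9 rose most, 4.91-fold, from 2.06 ± 1.12 to 9.90 ± 5.64 CPM. Platelet markers summed to 21.5 to 27.3 CPM in CLP and 8.3 to 9.1 CPM in sham, and 5 of 6 tested rose. Of 18 proliferation genes 0 were called in edgeR (0 higher and 0 lower at an unadjusted p below 0.05, and 3 were lower with library totals), while their sum was 1109 CPM in Sham replicate 4 against 308 to 395 CPM in the other sham libraries. Erythroid markers summed to 1910 CPM in that library, against 411 to 638 CPM in the other sham libraries and 889 to 1468 CPM in CLP. Of 11 tested erythroid markers 3 rose without overlap, Hbb-bs (2.96-fold), Alas2 (2.96-fold) and Hbb-bt (2.43-fold), and Epor fell by 0.99 on the log2 scale. Alas2, Hbb-bt and Epor were named after their values were seen. Without Sham replicate 4 the same 12 genes were higher and the same 3 lower. Of 6 tested genes read as signs of RNA quality, 4 rose, all of them mitochondrial transcripts, and 0 were called with library totals. Malat1 and Neat1 did not pass (adjusted p = 0.682 and 0.676 in edgeR). The list, most of it Malat1, summed to 16524 to 19830 CPM in CLP and 13460 to 17434 CPM in sham. Markers of B cells (0 higher and 1 lower of 8), T cells (0 and 0 of 8), NK cells (0 and 1 of 6), monocytes (0 and 0 of 5), dendritic cells (2 and 1 of 7) and endothelial cells (0 and 1 of 5) were mostly uncalled. Of 4 marginal zone macrophage markers 1 rose, Marco, from 91.3 ± 22.4 to 228 ± 109 CPM with overlapping groups (adjusted p = 0.0219 in edgeR). With library totals 1 of these 4, again Marco, was higher (log2 fold change 1.00, adjusted p = 0.0482 in edgeR) and 1 lower. The part of these genes in the results below was not tested. Fewer cells of a type and less RNA per cell cannot be told apart in these bulk libraries.

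Myc rose in every CLP library. It was at 85.1, 79.0, 107 and 88.2 CPM in CLP replicates 1 to 4 and at 54.4, 47.6, 52.5 and 65.3 CPM in sham. The lowest CLP library lay above the highest sham library, Sham replicate 4. This was a 1.64-fold rise (adjusted p = 0.000563 in edgeR), or 0.71 on the log2 scale (SE 0.12), and it was 0.39 with library totals (adjusted p = 0.0196). It was called higher in all 17 alternatives, between 0.39 and 0.82.

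None of the 3 RNA polymerase I subunit genes among the 37 was called higher. Polr1a, the largest catalytic subunit, was at 49.0, 50.8, 41.9 and 50.03 CPM in CLP and at 63.2, 58.4, 65.8 and 66.7 CPM in sham, with no overlap. It fell by 0.41 on the log2 scale (SE 0.08, adjusted p = 0.0023 in edgeR), and by 0.73 with library totals. Polr1b, the other subunit that forms the active site, averaged 15.5 ± 2.9 CPM in CLP and 18.3 ± 1.2 CPM in sham (SD, n = 4 each) and did not pass (log2 fold change -0.24, adjusted p = 0.173), but was called lower without CLP replicate 3 (-0.37). Polr1c, which RNA polymerase III also uses, was at 22.9, 20.1, 21.5 and 20.4 CPM in CLP and 20.05, 19.6, 18.2 and 18.9 CPM in sham. All 4 CLP values lay just above the sham values, yet the difference did not pass (0.15, adjusted p = 0.217).

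Among the snoRNP genes, Nop58 more than doubled while its partners moved little. NOP58, NOP56 and fibrillarin are core proteins of the box C/D snoRNPs, which guide methylation of ribosomal RNA. Nop58 was at 47.8, 50.2, 76.2 and 64.4 CPM in CLP and at 28.2, 28.5, 30.5 and 26.1 CPM in sham. Even the lowest CLP library was well clear of every sham library. It rose 2.11-fold (adjusted p = 0.000136 in edgeR), by 1.07 on the log2 scale (SE 0.14) and by 0.76 with library totals. Fbl, the methyltransferase of the complex, was at 27.8, 24.9, 28.5 and 25.1 CPM in CLP and 22.4, 21.3, 21.6 and 22.7 CPM in sham. The groups did not overlap, and Fbl rose 1.21-fold (adjusted p = 0.024 in edgeR), a call lost without CLP replicate 1 (adjusted p = 0.0603), with upper quartile scaling and with no filter on low counts.

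Nop56 averaged 34.3 ± 8.8 CPM in CLP and 27.6 ± 2.9 CPM in sham (SD, n = 4 each), overlapped between the groups and did not pass (adjusted p = 0.142). It was called higher without CLP replicate 1 (log2 fold change 0.43). Dkc1, the pseudouridine synthase of the box H/ACA snoRNPs, was at 12.7, 13.04, 17.98 and 14.8 CPM in CLP and 15.3, 13.3, 14.0 and 18.3 CPM in sham. Its groups overlapped fully (log2 fold change -0.06, adjusted p = 0.769). Nolc1, a chaperone of snoRNPs, rose 1.39-fold, from 34.6 ± 3.9 to 48.1 ± 10.02 CPM (adjusted p = 0.0192 in edgeR), and lost the call with 1 surrogate variable. Within each library, where no scaling enters, the ratio of Nop58 to Nop56 reads was 1.75 ± 0.08 in CLP and 1.04 ± 0.17 in sham (SD, n = 4 each), with no overlap. This pair was chosen after the values were seen.

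The abundant nucleolar proteins rose modestly and together, with TMM scaling. Ncl, which encodes the rRNA-binding nucleolin, was at 270, 265, 304 and 277 CPM in CLP and 237, 212, 221 and 226 CPM in sham. It rose 1.25-fold (adjusted p = 0.00395 in edgeR), and its log2 fold change was -0.00046 with library totals. Npm1, the histone-binding chaperone nucleophosmin, was at 175, 169, 147 and 168 CPM in CLP and 135, 123, 126 and 135 CPM in sham, and CLP replicate 3 was here the lowest CLP library. It rose 1.27-fold (adjusted p = 0.00325). Npm1 has processed pseudogene copies in the mouse genome, so how its reads were shared out is uncertain.

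Ddx21, an RNA helicase that links RNA polymerase I with rRNA processing, moved most of these 4 genes. It was at 184, 160, 207 and 201 CPM in CLP and 145, 125, 128 and 131 CPM in sham, a rise of 0.51 on the log2 scale (SE 0.09, adjusted p = 0.000942 in edgeR). With library totals it kept a positive value without a call (0.19, adjusted p = 0.0752). Mybbp1a, a nucleolar protein that binds MYB and acts on rDNA transcription, was at 144, 136, 147 and 137 CPM in CLP and 122, 111, 108 and 115 CPM in sham. It rose 1.23-fold with TMM scaling (adjusted p = 0.00373) and was at -0.02 on the log2 scale with library totals. Per kilobase of its longest transcript, Npm1 had the highest level of the 37 genes in sham (79.5 CPM per kb) and Rrp1b the lowest (2.74 CPM per kb).

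Of 7 SSU processome genes 1 rose, Wdr43. WDR43 belongs to the UTP-A subcomplex that binds the start of the rRNA precursor. It was at 49.96, 52.4, 77.8 and 64.6 CPM in CLP and 43.4, 45.9, 47.4 and 42.8 CPM in sham, a 1.36-fold rise without overlap (log2 fold change 0.45, adjusted p = 0.0155 in edgeR). Heatr1, of the same subcomplex, averaged 80.3 ± 17.1 CPM in CLP and 73.2 ± 2.65 CPM in sham and did not pass (adjusted p = 0.439). Nat10, the RNA cytidine acetyltransferase that acts on 18S rRNA, was at 21.0, 18.4, 24.3 and 20.4 CPM in CLP and 26.3, 21.0, 24.0 and 23.2 CPM in sham, an overlap that did not pass (-0.17, adjusted p = 0.248).

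The other 4 genes of this group lay between -0.04 and 0.24 on the log2 scale. Nop14 was highest among them (22.9 ± 1.2 to 27.04 ± 3.6 CPM, adjusted p = 0.0911 in edgeR, but called higher without CLP replicate 1 and by DESeq2), followed by Rrp9, the U3 snoRNA-binding protein (0.20), Utp14a (0.01) and Utp20 (-0.04). Utp14a had the smallest spread, 34.4 ± 1.5 CPM in CLP and 34.2 ± 1.0 CPM in sham (SD, n = 4 each), and scaling by totals gave a lower call (-0.31, adjusted p = 0.00597).

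Of 5 late 40S assembly genes 1 rose, Ltv1, and the others did not pass. Ltv1, a factor that must leave the pre-40S particle before it matures, was at 22.5, 23.2, 29.4 and 24.8 CPM in CLP and 17.9, 18.2, 19.6 and 14.2 CPM in sham. Every CLP library exceeded every sham library, and Ltv1 rose by 0.52 on the log2 scale (SE 0.13, adjusted p = 0.00632 in edgeR). Rrp12, which takes part in subunit export, was at 14.9, 12.2, 16.8 and 14.4 CPM in CLP and 16.1, 15.9, 13.7 and 15.1 CPM in sham, with overlapping groups (-0.07, adjusted p = 0.694). Tsr1, a GTPase-like factor of the pre-40S particle, averaged 40.4 ± 10.99 and 30.8 ± 1.9 CPM in CLP and sham (adjusted p = 0.0686 in edgeR). It was called higher without CLP replicate 2 (log2 fold change 0.49), with DESeq2 size factors and by DESeq2. Bysl averaged 15.4 ± 4.0 and 13.4 ± 1.9 CPM (adjusted p = 0.408). Nob1, the nuclease that makes the final 18S cut, was at 5.96, 7.005, 15.7 and 8.60 CPM in CLP and 11.0, 8.15, 8.91 and 9.29 CPM in sham, so that 1 CLP library was the highest of all 8 while the lowest value was also from CLP.

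Genes of the 60S branch went furthest in both directions. Rrs1, which helps bring the 5S ribonucleoprotein into the particle, was at 66.0, 54.0, 85.6 and 66.2 CPM in CLP and 31.7, 26.6, 32.3 and 24.2 CPM in sham. Its rise was the highest of the 37 genes (log2 fold change 1.24, SE 0.14, adjusted p = 6.36e-05 in edgeR) and lay at percentile 95.2 of all tested genes. Gnl3, the nucleolar GTPase nucleostemin, was at 51.9, 49.8, 88.2 and 69.2 CPM in CLP and 32.1, 27.0, 34.8 and 27.9 CPM in sham. It rose 2.13-fold (adjusted p = 0.000924 in edgeR), and its log2 fold change was 0.77 with library totals. Without CLP replicate 3 the log2 fold changes of Rrs1 and Gnl3 were 1.12 and 0.91, and both were still called.

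Rrp1b and Wdr12 fell. Rrp1b, a 60S factor known also as a chromatin-bound regulator, was at 6.21, 5.93, 8.82 and 8.34 CPM in CLP and 13.6, 13.1, 13.1 and 13.6 CPM in sham. The sham libraries were tightly grouped and all CLP libraries lay below them (log2 fold change -0.87, SE 0.15, adjusted p = 0.000807 in edgeR). Wdr12, which forms the PeBoW complex with PES1 and BOP1, was at 21.3, 23.1, 18.3 and 16.7 CPM in CLP and 34.2, 32.6, 29.01 and 36.5 CPM in sham, again without overlap (-0.74, adjusted p = 0.000515). Its partners did not pass, with Pes1 at 38.8 ± 2.2 and 42.1 ± 2.3 CPM (adjusted p = 0.249) and Bop1 at 29.8 ± 3.4 and 28.3 ± 1.2 CPM (adjusted p = 0.567) in CLP and sham. The ratio of Rrs1 to Rrp1b reads within a library was 9.35 ± 1.12 in CLP and 2.15 ± 0.31 in sham (SD, n = 4 each), and that of Gnl3 to Wdr12 reads was 3.39 ± 1.30 and 0.933 ± 0.192. Neither ratio overlapped between the groups, and both pairs were chosen after the values were seen.

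The other 6 genes of the 60S branch did not pass. Gnl2, a GTPase related to nucleostemin, was closest to a rise (1.21-fold, adjusted p = 0.0624) and Nop16 closest to a fall (-0.35, adjusted p = 0.0931). Gnl2 was called higher without CLP replicate 2 (0.36), with DESeq2 size factors, by DESeq2 and with a filter at 5 CPM. Nop16 was called lower without CLP replicate 4 (-0.50) and with library totals (-0.67). Nop2, an rRNA methyltransferase, averaged 23.6 ± 7.8 CPM in CLP and 28.15 ± 2.71 CPM in sham, and Noc3l 16.5 ± 5.5 and 19.8 ± 1.3 CPM. Both were called lower without CLP replicate 3 (log2 fold changes -0.51 and -0.51). Noc2l was at 69.4 ± 7.4 and 62.8 ± 3.8 CPM, and Grwd1, a chaperone of ribosomal protein L3, at 9.26 ± 2.72 and 9.83 ± 1.06 CPM.

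Some of the 37 genes share a feature of structure that their choice did not use. In GENCODE mouse release 21, 7 of the 37 held snoRNA genes within their bodies on the same strand (18.9%), against 1.94% of 11799 tested protein-coding genes. They were Nop56 with 5 snoRNA genes, Nop58 with 4, Ncl, Wdr43 and Gnl3 with 3 each, Tsr1 with 2 and Dkc1 with 1. Of these 7, 4 rose and none fell, with a median log2 fold change of 0.39, and of the other 30, 8 rose, with a median of 0.10. The 3 genes that fell were all among the 30. Of all tested genes 19.8% rose and 23.5% fell. With library totals Nop58 and Gnl3 stayed called, while Ncl and Wdr43 did not. Whether holding snoRNA genes plays a part was not tested. Several genes overlap a neighbour on the opposite strand, by up to 2984 bases where that neighbour was expressed (Tsr1 with Srr), 987 bases for Rrp9 with Parp3 and 875 bases for Heatr1 with Lgals8. The kit was stranded, but no source used here gives the strand setting of the counting, so it is uncertain to which gene of such a pair reads were assigned.

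The rest of ribosome assembly was read from 6 further lists (SSU processome, 60S, snoRNP, late 40S, RNA exosome and RNA polymerase I) with 142 genes that are not among the 37, of which 141 were tested. Nop53, Noc4l and Mtrex are each in more than 1 of these lists, so counts by list share them, while the 142 repeat no gene. The RNA polymerase III list described last is separate and not counted in the 142. Of the 141 tested, 20 rose (14.2%) and 27 fell (19.1%), both below the 19.8% and 23.5% of all tested genes. Their median log2 fold change was 0.00. With library totals 4 were higher and 70 lower, and without CLP replicate 3, 18 were higher and 42 lower. Of 38 further SSU processome genes, 4 rose (10.5%) and 6 fell (15.8%), again below the shares of all tested genes. Utp4 and Utp3 rose 1.42-fold and 1.36-fold. Utp25 fell from 19.3 ± 1.5 to 8.35 ± 1.60 CPM, by 1.20 on the log2 scale (adjusted p = 6.49e-05 in edgeR). Wdr75, of the UTP-A subcomplex like Wdr43 and Utp4, fell by 0.56 on the log2 scale. Without CLP replicate 3 the count of lower genes in this list was 13. With library totals 0 were higher and 22 lower, and Utp4 and Utp3 were not called (adjusted p = 0.261 and 0.321 in edgeR).

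In the list of 55 further 60S factors 13 rose (23.6%) and 8 fell (14.5%), beside 19.8% and 23.5% of all tested genes. Eif6, the factor that keeps the 60S subunit from joining the 40S too early, rose from 38.3 ± 4.6 to 94.2 ± 11.98 CPM, with an adjusted p of 9.73e-06 in edgeR (log2 fold change 1.30, or 0.98 with library totals). Sbds, which helps remove EIF6 from the late 60S particle, rose from 38.9 ± 2.3 to 77.9 ± 9.8 CPM (1.00, adjusted p = 1.67e-05, 0.68 with library totals). The DEAD-box helicase genes Ddx55 and Ddx31 fell by 1.00 and 0.90 on the log2 scale. Rrp1, the paralog of Rrp1b, rose by 0.28 (adjusted p = 0.00456), and was named after its value was seen. With library totals it was at -0.04 (adjusted p = 0.591 in edgeR), so its direction opposite to Rrp1b held with TMM scaling and not with totals. With library totals 3 genes of this list were higher and 21 lower, and without CLP replicate 3, 11 and 13.

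Among the 14 genes listed as further snoRNP genes 2 rose, Nhp2 (0.56) and Nop53 (0.28). Nop53 is also counted in the list described just before, so Nhp2 was the only rise that this list did not share. Of the 14, 4 fell, among them the assembly factors Znhit6 (-0.75) and Rpap3 (-0.59). Only 1 of the 14 was higher when any of CLP replicates 1, 2 and 4 or any of Sham replicates 2, 3 and 4 was left out. With library totals it was 0 (Nhp2 0.24, adjusted p = 0.191, and Nop53 -0.03, adjusted p = 0.767, in edgeR). Of 11 genes for late 40S steps and export 2 rose and 2 fell (18.2% each), and with library totals 1 was higher and 6 lower. The kinase gene Riok3 rose from 117 ± 3.24 to 196 ± 24.2 CPM (adjusted p = 5.95e-05 in edgeR) and the helicase gene Dhx15 rose 1.47-fold, while Xpo1, the exportin that carries both subunits and many other cargoes out of the nucleus, fell from 156 ± 8.51 to 85.04 ± 6.43 CPM, by 0.88 on the log2 scale (adjusted p = 9.71e-06). Of 14 RNA exosome genes, which trim rRNA precursors, 0 rose in edgeR (0 at an unadjusted p below 0.05, and 0 with every other tool and setting run). In this list 3 fell (21.4%, where 23.5% of all tested genes did), with Exosc4 (-0.85) and Exosc7 (-0.59) lowest. The count of lower exosome genes was 1 without Sham replicate 1, 1 to 4 over all libraries left out in turn, and 10 with library totals.

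The 2 RNA polymerase lists had the lowest median fold changes of the pathway lists. Of 12 further genes for RNA polymerase I and its factors, 1 rose (8.33%) and 4 fell (33.3%), beside 19.8% and 23.5% of all tested genes. With library totals 0 were higher and 7 lower, and without CLP replicate 2, 3 were higher. Polr1d rose by 0.44 on the log2 scale (0.12 with library totals, adjusted p = 0.332 in edgeR), while Ttf1, the transcription termination factor, fell from 20.4 ± 2.0 to 9.46 ± 3.33 CPM (-1.11, adjusted p = 0.00168 in edgeR) and Polr1g fell by 0.87. Ubtf, the upstream binding factor that opens rDNA, fell by 0.51 (adjusted p = 0.000214) and was named after its value was seen. Of 19 genes for RNA polymerase III, which makes 5S rRNA and tRNAs, 12 fell (63.2%, where 23.5% of all tested genes did) and 0 rose (0 at an unadjusted p below 0.05, and 0 with every other tool and setting run), with a median log2 fold change of -0.45. The 12 include Maf1, which encodes a repressor of RNA polymerase III and not a part of it (-0.29, adjusted p = 0.0324 in edgeR). Maf1 was named after its value was seen. This list of 19 leaves out Polr1c and Polr1d, subunits that RNA polymerase III shares with RNA polymerase I. They were counted with RNA polymerase I, where Polr1d rose with TMM scaling and Polr1c did not pass. Gtf3c4, a subunit of the factor TFIIIC, fell from 36.2 ± 2.4 to 20.2 ± 4.4 CPM (-0.85, adjusted p = 0.000639), and Polr3g fell by 0.87. The count of lower RNA polymerase III genes was 16 with library totals and 9 to 12 when single libraries were left out.

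**Figure D4:**
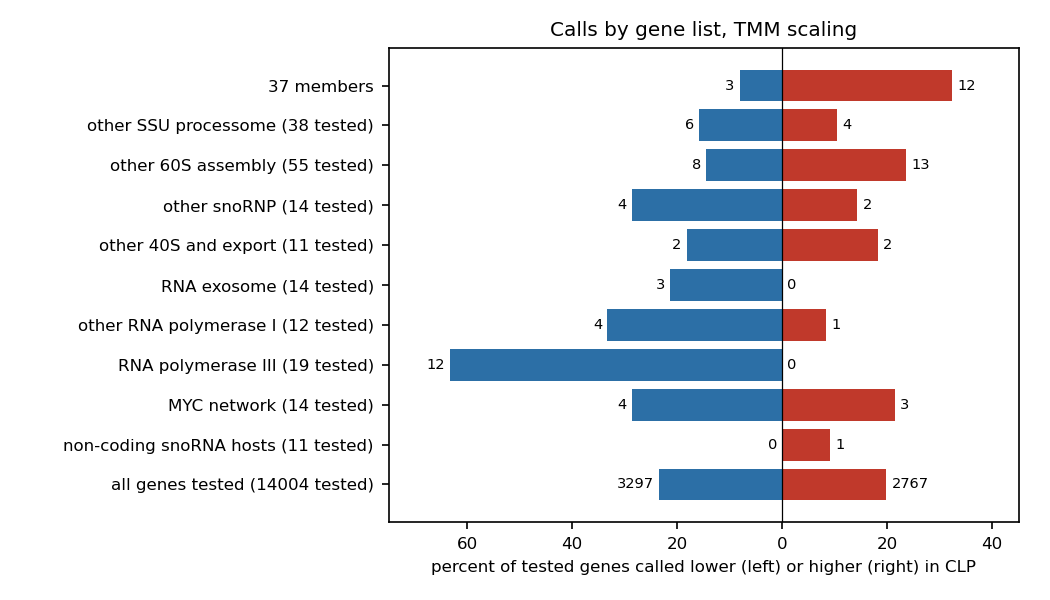
Percent of the tested genes of each list called higher (red, right of 0) or lower (blue, left of 0) in CLP with TMM scaling at an adjusted p below 0.05, with the number of genes at each bar's end. The 37 genes have 12 higher and 3 lower, and the RNA polymerase III list has 0 higher and 12 lower, beside 2767 and 3297 of all tested genes.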

How the data were processed

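The authors deposited raw counts per Ensembl gene, 1 column per library. The submitters' processing notes list build mm39 and the tools STAR 2.7.10b, FastQC, DESeq2 and featureCounts, without roles; the annotation release is not given in the sources used here. Per the labels' protocols, libraries came from a stranded TruSeq kit and an AVITI sequencer. Symbols, transcript lengths and snoRNA positions came from GENCODE mouse release 21, of an older build, and matched 52081 of 55414 IDs. Totals were 15392992 to 25665633 counts per library, so 1 CPM rests on 15.1 to 27.6 reads.

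The test was edgeR 4.0.16 under R 4.3.3 (filterByExpr, TMM, robust quasi-likelihood F-test on the 2 groups), with Benjamini-Hochberg adjustment over all 14004 genes tested. SE is the absolute log2 fold change over the square root of F. The lowest chi-square per degree of freedom between replicates was 8.99, so no library repeats another. Alternatives used DESeq2 1.42.0, limma 3.58.1 (voom), other scalings and filters, a replicate block, each library left out, and 1 surrogate variable (sva 3.50.0, added after seeing the data). The edgeR step was tested on simulated data. It recovered 38 of 67 genes changed 1.5-fold, 60 of 67 changed 2-fold and 63 of 66 changed 4-fold. A gene that did not pass may thus still have changed. Figures used matplotlib 3.10.9.

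The 37 genes and all lists were chosen with earlier results of these data known. Values in every library were given for Myc, Ncl, Npm1, Fbl, Gnl3, Polr1a and the highest and lowest fold change of each role. From each pathway list at most the 2 highest and 2 lowest called genes averaging 5 CPM or more were named, and other names were added after their values were seen. The lists hold 2 symbols that matched no row.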

Additional observations from a re-analysis of the deposited data

Results flagged for a closer look

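Among the 74 groups of 4 libraries tested for a library far from the rest (37 genes, 2 groups), 3 stood apart, all in sham, where chance gives about 1 in 20. For Nop14, Sham replicate 3 was at 24.8 CPM and the other sham libraries at 22.3 to 22.3 CPM. For Nop2, Sham replicate 4 was at 32.2 CPM and the others at 26.5 to 27.1 CPM. For Grwd1, Sham replicate 1 was at 11.4 CPM and the others at 9.09 to 9.47 CPM. None of the 3 genes was called, with or without these libraries.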

How the results depend on the processing

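Library totals moved most results: 4 genes higher and 12 lower of the 37 (3 and 10 without overlap), 1286 and 6435 of all genes, 4 and 70 of the 141 other pathway genes, and a median of -0.17. With them Fbl (-0.044), Ncl (-0.00046), Mybbp1a (-0.016), Polr1c (-0.17), Nop56 (-0.0025), Heatr1 (-0.18), Utp14a (-0.31), Nop14 (-0.078), Rrp9 (-0.12), Bysl (-0.11), Gnl2 (-0.049), Bop1 (-0.24) and Noc2l (-0.17) turned sign. Utp14a also did with upper quartile scaling (-0.046) and no filter (-0.016), Utp20 with DESeq2 size factors (0.0010) and DESeq2 (0.0012), and Nob1 with these (0.032 and 0.031) and 1 surrogate variable (0.0095). Leaving out single libraries gave 12 to 14 higher and 3 to 6 lower (6 without CLP replicate 3), 16 to 24 and 21 to 42 for other pathway genes, 2310 to 2847 and 2639 to 3458 for all genes, and medians of 0.073 to 0.23. Uncalled genes that turned sign there ranged from -0.17 to 0.059 (Dkc1), -0.0082 to 0.051 (Utp14a), -0.10 to 0.020 (Utp20), -0.38 to 0.16 (Nob1), -0.14 to 0.014 (Rrp12) and -0.28 to 0.073 (Grwd1). The replicate block gave 12 and 3 for the 37 genes, 2799 and 3290 for all genes, and changed no call among the 37. With group means removed, same-numbered libraries correlated at -0.19 to 0.26. The labels name no pairing, and correlations among so few libraries cannot show whether the numbers pair them. DESeq2 gave 15 and 3. The cause of these shifts was not tested.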

Other observations

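Partners and rivals of MYC went both ways, in shares near those of all tested genes. Of 14 tested genes of this network 3 rose (21.4%) and 4 fell (28.6%), beside 19.8% and 23.5% of all tested genes. With library totals 3 were higher and 9 lower, where 9.18% and 46% of all tested genes were. Bin1, which encodes a MYC-interacting adaptor, rose from 39.4 ± 2.6 to 88.8 ± 8.4 CPM, by 1.17 on the log2 scale (adjusted p = 3.25e-06 in edgeR) and by 0.85 with library totals, and Pim1, a kinase gene, rose from 548 ± 114 to 1035 ± 137 CPM (adjusted p = 0.00107). Mxd4, which encodes a MAX partner that opposes MYC at E-boxes, fell from 86.3 ± 7.1 to 41.96 ± 9.6 CPM (-1.04, adjusted p = 0.000249). Mxi1, which encodes another MAX partner that opposes MYC, rose by 0.68 on the log2 scale (adjusted p = 0.000172 in edgeR). With library totals Mxi1 was at 0.37 and still called, and it was named after its value was seen. Mlxip, of the wider MYC network, fell by 0.37 on the log2 scale.

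Of 11 tested non-coding snoRNA host genes 1 rose (2 without CLP replicate 1, CLP replicate 2 or Sham replicate 1, and 3 by DESeq2), Snhg15, from 9.83 ± 1.58 to 24.1 ± 3.2 CPM, by 1.29 on the log2 scale (adjusted p = 3.94e-05 in edgeR). Gas5, the most abundant of them, averaged 27.1 ± 3.3 CPM in sham and 28.03 ± 2.5 CPM in CLP (adjusted p = 0.74) and was named after its value was seen.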
